A study of Mus musculus with 2 samples.

Results

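Antiviral interferon-stimulated effector genes are the genes that a cell switches on under interferon and whose products sense, mark, block or degrade viral material. A list of 39 such mouse genes was defined by gene name with earlier results of these data known. The list was followed in RNA-seq of cultures grown from mammary basal cells with or without the cytokine TNF-α. All 39 were found among the 49492 genes of the deposited count table. The cells were wild-type (WT) primary epithelial cells, sorted by FACS as the basal fraction of adult female mammary glands and grown in 3D gel. The gate took lineage-negative cells with CD24 and high CD29, and the lineage antibodies covered CD45, CD31 and TER119. The control library came from cultures with no treatment, and the TNF library from cultures given recombinant mouse TNF-α at 10 ng/mL. The series' design text gives 10 days in 3D. Neither the number of donor animals behind each library nor their strain is given in the labels.

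There was 1 library in each group, so no difference below has a replicate check and no p-value is given. The libraries held 44462275 (control) and 53487087 (TNF) counts. Levels are given as CPM, which puts the counts of both libraries on the same library size, after TMM scaling, where 10 counts correspond to 0.224 CPM in the control and 0.187 CPM in the TNF library. Where the levels of different genes are compared they are given as RPKM, which also divides by exon length in kilobases, and sums over genes in CPM describe shares of the counts. Log2 ratios are TNF over control, with 2 as the prior count, and were taken for 20771 genes whose counts in both libraries summed to 10 or more. Past 2-fold in either direction, a gene is called higher or lower here. Ranges in parentheses after a ratio are 95% Clopper-Pearson intervals for the portion of a gene's counts found in the TNF library, turned into ratios, and they cover counting error only. Of all genes tested, 8.56% were called higher and 6.62% lower. The log2 ratio of all genes tested had a median of 0.0038, with -1.20 as the 5th and 1.42 as the 95th percentile. In bulk RNA, a changed number of cells of a type and a changed amount of RNA per cell cannot be told apart.

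The libraries carried the basal label's markers. Krt14 stood at 5157 CPM in the control and 4872 CPM in the TNF library, and the 8 basal markers summed to 9519 and 9273 CPM. Among these, Itga6 had the highest log2 ratio (0.26) and Oxtr, at -1.19, the lowest and the only one called. The 9 luminal markers were also detected and summed to 3466 CPM in the control and 2506 CPM in the TNF library, with log2 ratios from -1.54 (Pgr) to -0.10 (Krt8) and 2 called lower. By FACS, the paper that reported these data found mostly luminal cells in control colonies grown from sorted basal cells for its macrophage co-culture experiment. It also reported a larger basal proportion in cultures with TNF-α. The part of the marker shifts and of cell composition in the results below was not tested.

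Interferons bind surface receptors that activate the JAK kinases and, through them, STAT transcription factors. Type I and III interferons lead to a complex of STAT and IRF proteins that binds the interferon-stimulated response element (ISRE), whereas interferon-γ leads to STAT dimers that bind gamma-activated sites (GAS). IRF family members can also bind an ISRE. TNF-α acts first through NF-κB, which binds κB sites. The effector genes are known for holding viruses in check in many cell types, epithelium included, and many are kept at a low level until a signal arrives.

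The DNA just before the start of these genes is shown first, because the response elements named above lie there in several of them. RefSeq windows of 250 bases upstream of the start (GRCm38.p6) were at hand for 30 of the 39 members, as 35 windows. Isg20 had 3 windows, and Ifit2, Sp100 and Trim30a had 2 windows each. For 1 window of Ifit2 and 1 of Trim30a, the bases checked past the start were not found in the gene's transcripts. There was no entry for Dhx58, Zbp1, Oas2, Usp18, Parp9, Parp14, Mx1, Mx2 and Rtp4. Both strands were searched for GAAANNGAAA (ISRE), TTCNNNGAA (GAS) and the κB consensus, matches of the same or of different motifs were allowed to overlap, and a gene counted once when any of its windows matched. The 160 bases directly upstream of the RefSeq start are printed below on the strand of the gene, with matches in capitals. The first 5 genes carry the ISRE pattern and represent families described below, and Ubd had the largest ratio of all members. Trim25 and Ifih1, of small ratio, are shown for contrast and had no match to any of these motifs.
Isg15, chr4:156200819-156200978, minus strand: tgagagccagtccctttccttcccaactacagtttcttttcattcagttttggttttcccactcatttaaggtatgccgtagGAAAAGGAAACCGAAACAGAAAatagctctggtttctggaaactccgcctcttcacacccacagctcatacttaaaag
Ifit1, chr19:34640729-34640888, plus strand: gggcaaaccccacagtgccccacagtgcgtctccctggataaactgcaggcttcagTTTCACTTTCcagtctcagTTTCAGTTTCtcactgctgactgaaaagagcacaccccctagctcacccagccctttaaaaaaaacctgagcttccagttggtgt
Ifit3, chr19:34583369-34583528, plus strand: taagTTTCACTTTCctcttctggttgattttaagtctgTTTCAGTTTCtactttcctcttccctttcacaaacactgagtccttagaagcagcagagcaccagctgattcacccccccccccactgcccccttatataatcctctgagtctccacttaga
Oas1a, chr5:120907526-120907685, minus strand: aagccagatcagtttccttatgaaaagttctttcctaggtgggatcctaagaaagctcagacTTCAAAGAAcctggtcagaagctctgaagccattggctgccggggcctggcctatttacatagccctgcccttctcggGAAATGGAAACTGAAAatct
Rsad2, chr12:26456453-26456612, minus strand: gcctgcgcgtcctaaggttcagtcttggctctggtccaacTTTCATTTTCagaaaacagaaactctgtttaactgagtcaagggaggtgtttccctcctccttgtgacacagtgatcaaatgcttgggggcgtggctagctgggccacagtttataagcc
Ubd, chr17:37193732-37193891, plus strand: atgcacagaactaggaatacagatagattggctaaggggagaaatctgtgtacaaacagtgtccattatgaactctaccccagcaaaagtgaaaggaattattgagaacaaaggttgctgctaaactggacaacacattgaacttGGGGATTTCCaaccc
Trim25, chr11:88999243-88999402, plus strand: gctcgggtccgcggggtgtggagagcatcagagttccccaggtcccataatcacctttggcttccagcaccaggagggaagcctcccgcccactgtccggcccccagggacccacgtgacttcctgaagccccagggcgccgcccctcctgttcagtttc
Ifih1, chr2:62646256-62646415, minus strand: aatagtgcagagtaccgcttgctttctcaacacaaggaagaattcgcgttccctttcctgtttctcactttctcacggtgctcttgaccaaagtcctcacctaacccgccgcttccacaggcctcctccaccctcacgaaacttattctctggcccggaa

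The ISRE pattern was found in 9 of the 30 members with a window (30%), and in 936 of the 27025 genes of the promoter table (3.46%). The members were Oas1a, Oas1g, Oas3, Ifit1, Ifit3, Isg15, Bst2, Rsad2 and Trim30a. The Trim30a match lay in 1 of its 2 windows. Whether that window is the one that failed the check of bases past the start was not tested. In Isg15, 3 overlapping matches filled the stretch from 78 to 57 bases before the start. In Ifit1 and Ifit3 there were separate pairs of matches, all on the opposite strand, at 104 to 95 and 85 to 76 bases in Ifit1 and at 156 to 147 and 122 to 113 bases in Ifit3. In Oas1a an overlapping pair lay 20 to 5 bases before the start, with a GAS match farther out at 98 to 90 bases. The GAS pattern was found in 5 members (16.7%, against 8.13% of the table), namely Eif2ak2, Oas1a, Ifit2, Bst2 and Isg20. A κB match was found in 8 (26.7%, against 8.23%), namely Oas3, Oasl1, Ifit2, Ubd, Ifitm3, Bst2, Isg20 and Epsti1. In Ubd it was the only match of any kind and lay 15 to 6 bases before the start. Bst2, alone among the 30, held all of these motifs, and its GAS match overlapped its ISRE match. A match is a run of letters and not a binding site, and these shares are descriptions with no test.

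With TNF-α, 32 of the 39 effector genes were called higher and none lower, beside 8.56% and 6.62% of all genes tested. The remaining 7 lay between, and all 39 log2 ratios were above 0. The median log2 ratio of the members was 2.19 (0.0038 over all genes), with a range from 0.23 for Trim25 to 5.93 for Ubd. The whole counting interval lay over 2-fold for 32 members, which 3.74% of all genes tested met. Ratios over 4-fold were reached by 23 members, beside 2.60% of all genes tested. Ratios over 8-fold were reached by 12, of which the lowest, Trim30a, ranked 165 among all 20771 genes tested. The 95th percentile of all genes was exceeded by 30 members. All 39 members passed the filter on low counts, although Oas2 and Oas3 did so through the TNF library, having under 10 counts in the control. Both are included in the calls, medians and groups of members given here.

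Together, the members took 21248 counts of the control library (476.9 CPM, 0.0477% of the total) and 68575 counts of the TNF library (1285 CPM, 0.129%). The log2 ratio of these sums was 1.43 (1.41 to 1.45), a 2.70-fold difference, below the median of the single genes. In the control, 14 members were under 1 CPM, and all of these were among those called higher. With TNF-α only Oas2 and Oas3 were under 1 CPM. The median RPKM of the members was 0.820 in the control and 3.59 in the TNF library.

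**Figure D1:**
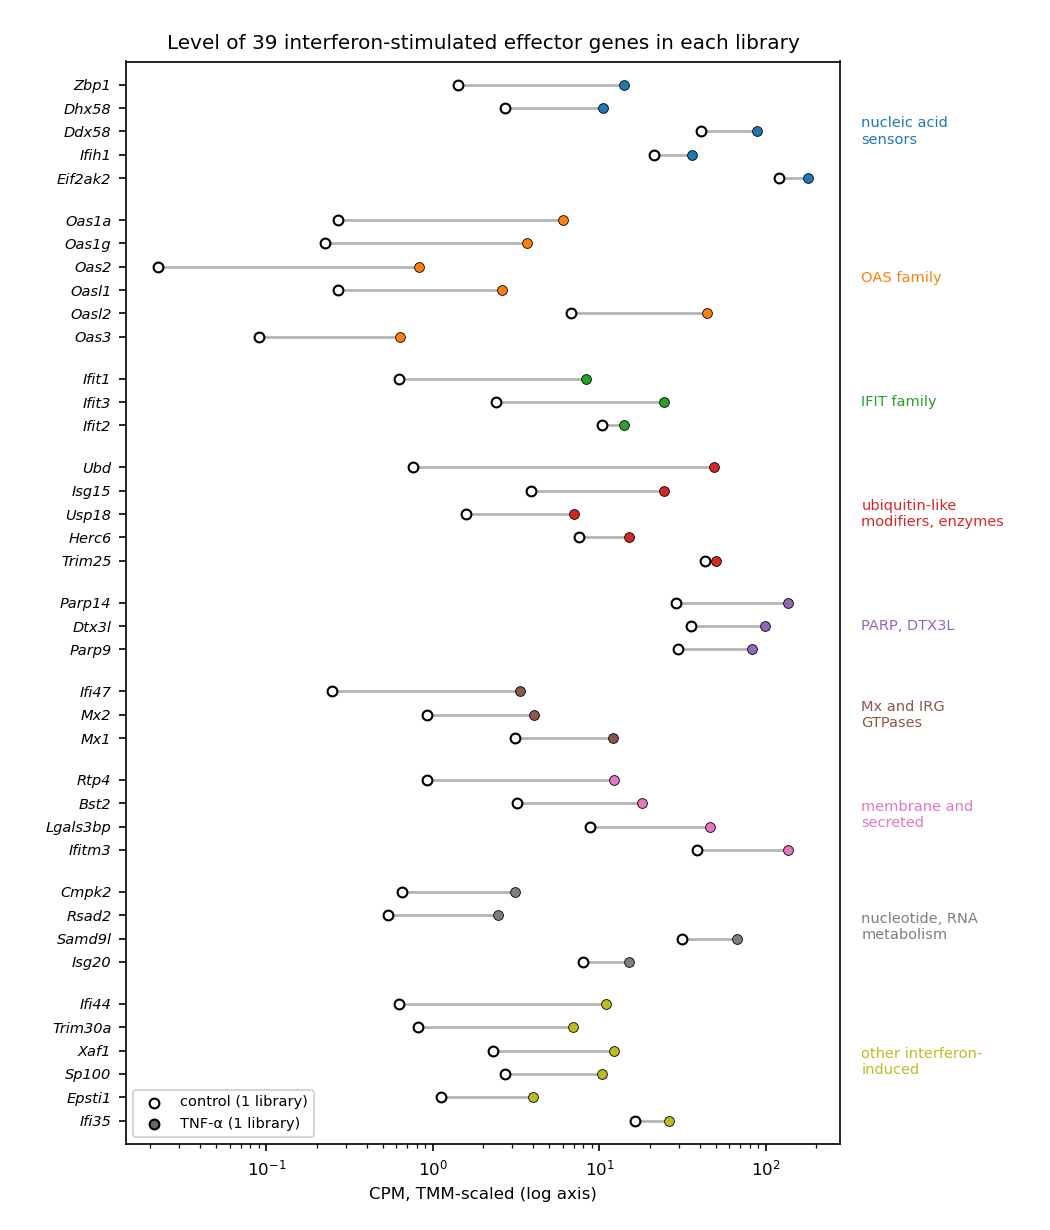
Level of each of the 39 effector genes in the control library (open circle) and the TNF library (filled circle), in TMM-scaled CPM on a log axis, grouped by role, with 1 library per group and no error bars. Each filled circle lies to the right of its open circle, and the gap is widest for Ubd (0.763 to 49.0 CPM) and narrow for Trim25 (42.9 to 50.4 CPM).

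**Figure D2:**
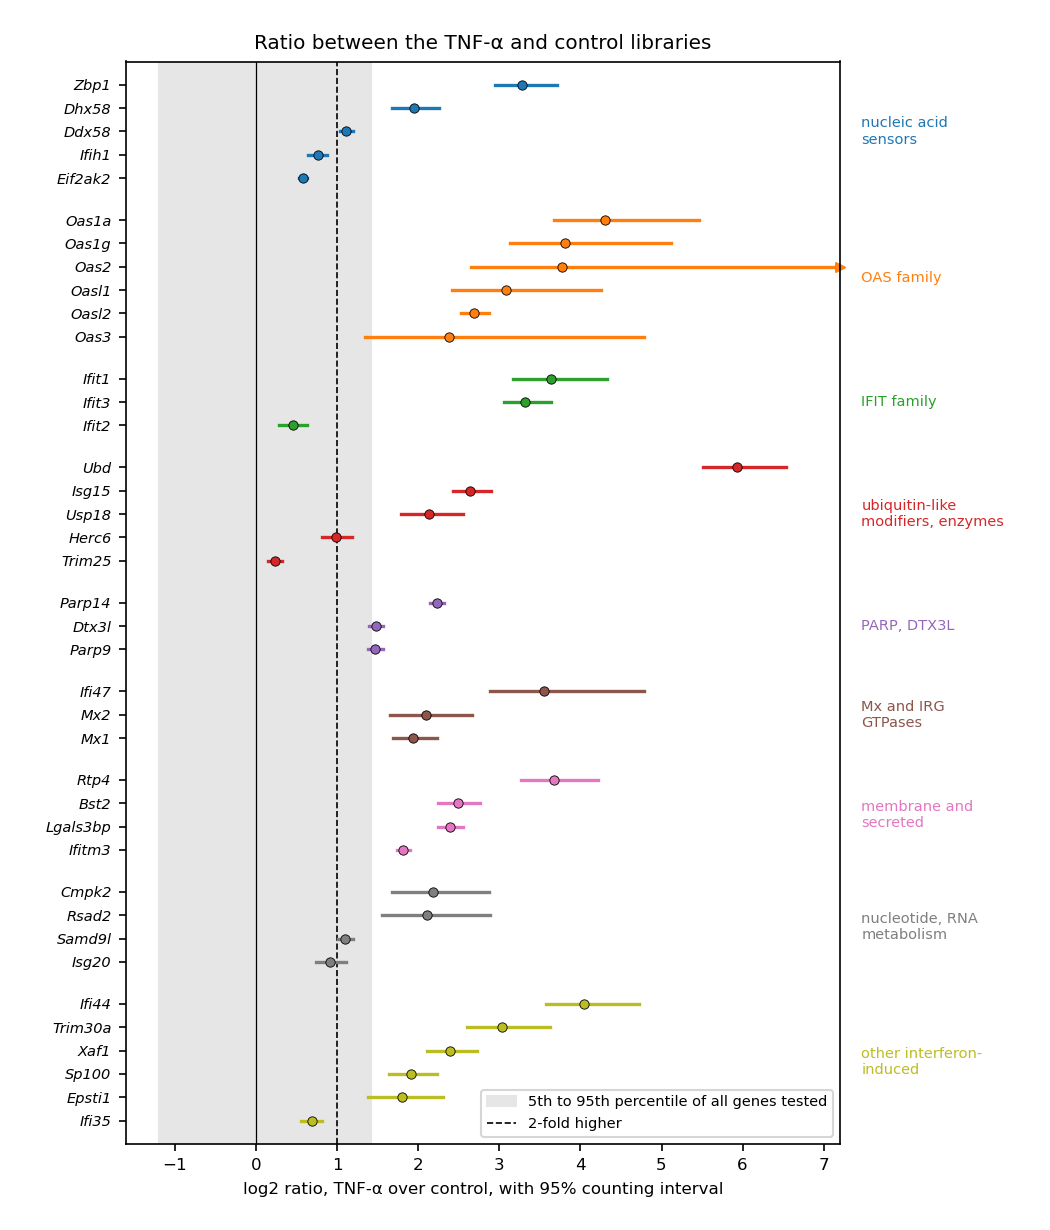
The log2 ratio of TNF to control for each member with its 95% counting interval (horizontal line). The grey band spans the 5th to 95th percentile of all 20771 genes tested (-1.20 to 1.42), the dashed line is 2-fold, and the interval of Oas2 runs past the axis to 10.54. In each role group with a member short of 2-fold, another member lies well to its right.

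The nucleic acid sensors were uneven, with 3 of 5 called higher, beside 8.56% of all genes tested, and a median log2 ratio of 1.12. Zbp1, a sensor of Z-form nucleic acids that can start necroptosis, had 63 counts in the control and 754 with TNF-α (1.41 and 14.1 CPM, log2 ratio 3.28, 2.95 to 3.72). Dhx58 encodes LGP2, a relative of RIG-I without its signalling domains, and went from 121 to 564 counts (2.72 and 10.6 CPM, log2 ratio 1.94, 1.68 to 2.26). Ddx58, which encodes RIG-I itself, had 1810 and 4701 counts (40.6 and 88.1 CPM, log2 ratio 1.12, 1.04 to 1.20), so it passed 2-fold by a small margin. The other two sensors stayed short of 2-fold. Ifih1, encoding the long double-stranded RNA sensor MDA5, had 950 and 1929 counts (21.3 and 36.2 CPM, log2 ratio 0.76, 0.65 to 0.88). Eif2ak2 encodes PKR, the kinase that halts translation on double-stranded RNA, and had 5307 and 9487 counts (119.1 and 177.8 CPM, log2 ratio 0.58, 0.53 to 0.63). The 3 RIG-I-like helicases thus did not share a ratio: Ifih1 minus Dhx58 gave -1.18 on the log2 scale, and their intervals did not overlap.

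The OAS family was called higher in all 6 members, beside 8.56% of all genes tested. Its median log2 ratio was 3.43 (3.35 when Oas2 is set to its bound at a floor of 3 counts). Of the 6, Oas2 and Oas3 passed the filter on low counts only through the TNF library. The family is named for enzymes that, when bound to double-stranded RNA, make short oligoadenylates that act as an antiviral signal, and it includes OAS-like proteins, of which Oasl1 lacks that activity. The genes lie on chromosome 5, and the family summed to 7.65 CPM in the control and 57.8 CPM in the TNF library. Oasl2, an OAS-like gene, took most of the family's counts, with 302 and 2349 (6.78 and 44.0 CPM, log2 ratio 2.69, 2.53 to 2.88). Oasl1, which restrains production of IRF7, had 12 and 138 counts (0.269 and 2.59 CPM, log2 ratio 3.08, 2.41 to 4.25). The intervals of these neighbours overlapped, but their levels differed, Oasl1 standing at 0.144 times the RPKM of Oasl2 with TNF-α. Oas1a had 12 and 324 counts (0.269 and 6.07 CPM, log2 ratio 4.30, 3.67 to 5.46), and this ratio ranked below that of Ubd, and below that of Oas2 as well at a prior count of 0.5 (4.44 against 4.68). Oas1g had 10 and 197 counts (0.224 and 3.69 CPM, log2 ratio 3.81, 3.13 to 5.12). These paralogs cannot be cleanly separated, since 57.6% of the distinct 50-base stretches of Oas1a transcripts also occur in Oas1g. Oas2 had 1 count in the control and 44 with TNF-α, a scaled ratio of 36.7-fold with an interval from 6.26-fold to 1484-fold, and its log2 ratio of 3.77 depends on the prior count. Oas3 had 4 and 34 counts (0.0898 and 0.637 CPM, log2 ratio 2.38, 1.34 to 4.78). At these counts the size of the difference is loosely bounded for both, and they were the lowest of all 39 members by RPKM in both libraries.

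Among the IFIT genes, Ifit1 and Ifit3 were called higher and their neighbour Ifit2 was not. IFIT proteins bind viral RNA or one another and block its translation, and Ifit1 recognises RNA caps that lack the host's methyl mark. Ifit1 had 28 counts in the control and 442 with TNF-α (0.628 and 8.29 CPM, log2 ratio 3.64, 3.17 to 4.33). Ifit3 had 107 and 1297 counts (2.40 and 24.3 CPM, log2 ratio 3.32, 3.05 to 3.64), with the limit that 51.2% of its 50-base stretches also occur in Ifit3b. Ifit2 had 459 and 753 counts (10.3 and 14.1 CPM, log2 ratio 0.45, 0.29 to 0.62). In the control, Ifit2 was therefore the highest of the family by RPKM (2.62, against 0.237 for Ifit1 and 1.38 for Ifit3), and with TNF-α Ifit3 was (13.9, against 3.59 for Ifit2 and 3.12 for Ifit1). Ifit2 lies 7111 bases from Ifit3 and 64451 bases from Ifit1 on chromosome 19. The difference in log2 ratio was 3.18 between Ifit1 and Ifit2 and 2.86 between Ifit3 and Ifit2, and in neither pair did the intervals overlap. Of the sequences compared above, Ifit1 and Ifit3 each hold a pair of ISRE matches. Ifit2 has 2 windows, of which 1 holds a GAS and an overlapping κB match, and neither holds an ISRE match. Whether that window is the one that failed the check of bases past the start was not tested. These Ifit2 matches lie 247 to 233 bases before the start, and sequence beyond 250 bases was not searched. Whether Ifit2 has an ISRE elsewhere was therefore not tested.

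Ubd had the largest log2 ratio of the 39 members and the fifth of all 20771 genes tested. It encodes FAT10, a ubiquitin-like protein that sends its targets to the proteasome and is known to respond to TNF-α together with interferon-γ. Ubd had 34 counts in the control and 2612 with TNF-α (0.763 and 49.0 CPM, log2 ratio 5.93, 5.52 to 6.54), and its RPKM of 0.820 and 52.6 took it from rank 20 to rank 2 of the 39. Isg15, a ubiquitin-like modifier that is attached to newly made proteins, had 172 and 1299 counts (3.86 and 24.3 CPM, log2 ratio 2.64, 2.43 to 2.90). In RPKM, Ubd stood at 0.161 times Isg15 in the control and at 1.63 times Isg15 with TNF-α, and the intervals of their ratios did not overlap. Usp18, the protease that removes ISG15 and dampens the type I interferon receptor, had 70 and 374 counts (1.57 and 7.01 CPM, log2 ratio 2.13, 1.79 to 2.55).

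The ligases that act with these modifiers had smaller ratios. Herc6, the main ISG15 ligase of the mouse, had 335 and 801 counts (7.52 and 15.0 CPM, log2 ratio 0.99, 0.81 to 1.19). This put it just under 2-fold, with its interval on both sides of the line, and 13.7% of its exon length is shared on the same strand with the annotated gene Gm45193. Trim25, the ubiquitin ligase that acts on RIG-I, had 1911 and 2689 counts (42.9 and 50.4 CPM, log2 ratio 0.23, 0.15 to 0.32), the smallest ratio of the list. The enzymes that come before Herc6 in the ISG15 pathway are no members, and were picked out after their values were seen. The activating enzyme Uba7 had 157 and 479 counts (log2 ratio 1.34, 1.09 to 1.62). The conjugating enzyme Ube2l6 had 162 and 1099 counts (log2 ratio 2.49, 2.26 to 2.75), so that modifier, activating enzyme, conjugating enzyme and protease were all called higher.

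Parp9, Dtx3l and Parp14, which lie together on chromosome 16, were all called higher from a considerable level in the control. PARP9 and the ubiquitin ligase DTX3L work as a heterodimer, and PARP14 adds single ADP-ribose units to its targets. Parp14 had 1283 and 7235 counts (28.8 and 135.6 CPM, log2 ratio 2.23, 2.15 to 2.32). Parp9 had 1326 and 4406 counts (29.8 and 82.6 CPM, log2 ratio 1.47, 1.38 to 1.56). Dtx3l had 1577 and 5272 counts (35.4 and 98.8 CPM, log2 ratio 1.48, 1.40 to 1.56). The partners Parp9 and Dtx3l thus had near-equal ratios, with -0.0090 for Parp9 minus Dtx3l on the log2 scale, and near-equal levels, with Parp9 at 0.982 times the RPKM of Dtx3l with TNF-α. Their exons overlap over 458 bases on opposite strands, and whether counting used the strand is not given in the sources used here, so a portion of their counts may be shared. Parp14, 66925 bases from Parp9, exceeded it by 0.76 on the log2 scale with no overlap of the intervals. Together these genes stood at 93.9 CPM in the control and 317.0 CPM with TNF-α.

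The antiviral GTPases were called higher in 3 of 3, from low levels, beside 8.56% of all genes tested. Mx1, a dynamin-like GTPase that acts in the nucleus against influenza viruses, had 139 and 644 counts (3.12 and 12.1 CPM, log2 ratio 1.94, 1.69 to 2.23). Its cytoplasmic paralog Mx2 had 41 and 217 counts (0.920 and 4.07 CPM, log2 ratio 2.10, 1.66 to 2.66). Mx1 minus Mx2 gave -0.16 on the log2 scale, and their intervals overlapped. Ifi47, an immunity-related GTPase better known for its response to interferon-γ, had 11 and 178 counts (0.247 and 3.34 CPM, log2 ratio 3.55, 2.88 to 4.78). Its exons share 111 bases on the same strand with Olfr56, an olfactory receptor gene with 2 and 165 counts, so these reads cannot be assigned to either gene with certainty.

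The membrane and secreted factors were called higher in 4 of 4, beside 8.56% of all genes tested, with a median log2 ratio of 2.44. Ifitm3, which blocks fusion of viruses in endosomes, was the most highly expressed member by RPKM in both libraries (57.1 and 201.5). It had 1724 and 7289 counts (38.7 and 136.6 CPM, log2 ratio 1.82, 1.74 to 1.90). Bst2, known as tetherin for holding budding virus at the cell surface, had 142 and 963 counts (3.19 and 18.1 CPM, log2 ratio 2.49, 2.25 to 2.77). Lgals3bp encodes a secreted glycoprotein that binds galectins, and had 391 and 2470 counts (8.78 and 46.3 CPM, log2 ratio 2.39, 2.24 to 2.56). Rtp4, a Golgi chaperone of membrane receptors, had 41 and 650 counts (0.920 and 12.2 CPM, log2 ratio 3.67, 3.27 to 4.22), the largest ratio of the group. Gm45338, which shares 296 exonic bases with Rtp4, had 16 and 19 counts.

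Genes of nucleotide and RNA metabolism had moderate ratios, with a median log2 ratio of 1.61. Of these genes 3 of 4 were called higher, beside 8.56% of all genes tested. Rsad2 encodes viperin, which makes a chain-terminating nucleotide, and had 24 and 131 counts (0.539 and 2.46 CPM, log2 ratio 2.11, 1.55 to 2.88). Its neighbour Cmpk2, a mitochondrial nucleotide kinase that lies 12751 bases away on chromosome 12, had 29 and 166 counts (0.651 and 3.11 CPM, log2 ratio 2.19, 1.68 to 2.88). Rsad2 minus Cmpk2 gave -0.08 on the log2 scale, and the intervals overlapped. Samd9l, which restricts translation, had 1396 and 3594 counts (31.3 and 67.4 CPM, log2 ratio 1.10, 1.01 to 1.19). Isg20, an RNA exonuclease, had 355 and 805 counts (7.97 and 15.1 CPM, log2 ratio 0.92, 0.74 to 1.11), and its interval ran past 2-fold at the upper end.

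Of 6 further interferon-induced genes, 5 were called higher, beside 8.56% of all genes tested, with a median log2 ratio of 2.16. Ifi44, a widely used indicator gene of interferon exposure, had 28 and 585 counts (0.628 and 11.0 CPM, log2 ratio 4.04, 3.58 to 4.73). Trim30a, a mouse TRIM protein that limits Toll-like receptor signalling to NF-κB, had 36 and 368 counts (0.808 and 6.90 CPM, log2 ratio 3.03, 2.60 to 3.63). These were the steepest of the group. Xaf1, which counters the caspase inhibitor XIAP, had 102 and 652 counts (2.29 and 12.2 CPM, log2 ratio 2.40, 2.11 to 2.73). Sp100, a component of PML nuclear bodies, had 120 and 549 counts (2.69 and 10.3 CPM, log2 ratio 1.92, 1.65 to 2.23). Epsti1, named for epithelial-stromal interaction in the breast, had 50 and 214 counts (1.12 and 4.01 CPM, log2 ratio 1.80, 1.39 to 2.31). Ifi35 had the highest control level of the group and was the one short of 2-fold, with 725 and 1399 counts (16.3 and 26.2 CPM, log2 ratio 0.69, 0.56 to 0.82). Its exons overlap Gm11626 over 290 bases on the opposite strand.

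The 7 members short of 2-fold (Herc6, Isg20, Ifih1, Ifi35, Eif2ak2, Ifit2 and Trim25) all had at least 335 counts in the control. When the 39 were divided by control RPKM into groups of 13, the lowest (0.00504 to 0.356) had a median log2 ratio of 3.08 with 13 called higher, the middle (0.401 to 2.62) a median of 2.13 with 10 called higher, and the highest (3.08 to 57.1) a median of 1.47 with 9 called higher. Spearman's rho between control RPKM and log2 ratio over the 39 genes was -0.67. This is a description across genes of 1 library pair, and the control count enters both axes. Low level did not fix the size of the ratio, since Ubd with 0.820 RPKM and Herc6 with 0.809 RPKM in the control had log2 ratios of 5.93 and 0.99. The members' sum was higher by 808.6 CPM with TNF-α, and 4 genes (Eif2ak2, Ifitm3, Parp14 and Dtx3l) took 42.7% of the members' counts in that library.

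The 9 members with an ISRE match had log2 ratios from 2.11 to 4.30 with a median of 3.03, and the 21 members with a window and no such match ran from 0.23 to 5.93 with a median of 1.80. For the κB motif the medians were 2.10 with a match and 2.29 without, and for GAS they were 0.92 and 2.38. The 7 members short of 2-fold all had a window, and none held an ISRE match. Of the 9 with an ISRE match, 6 were in the lowest group by control RPKM, and the part of the level in this pattern was not tested.

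**Figure D3:**
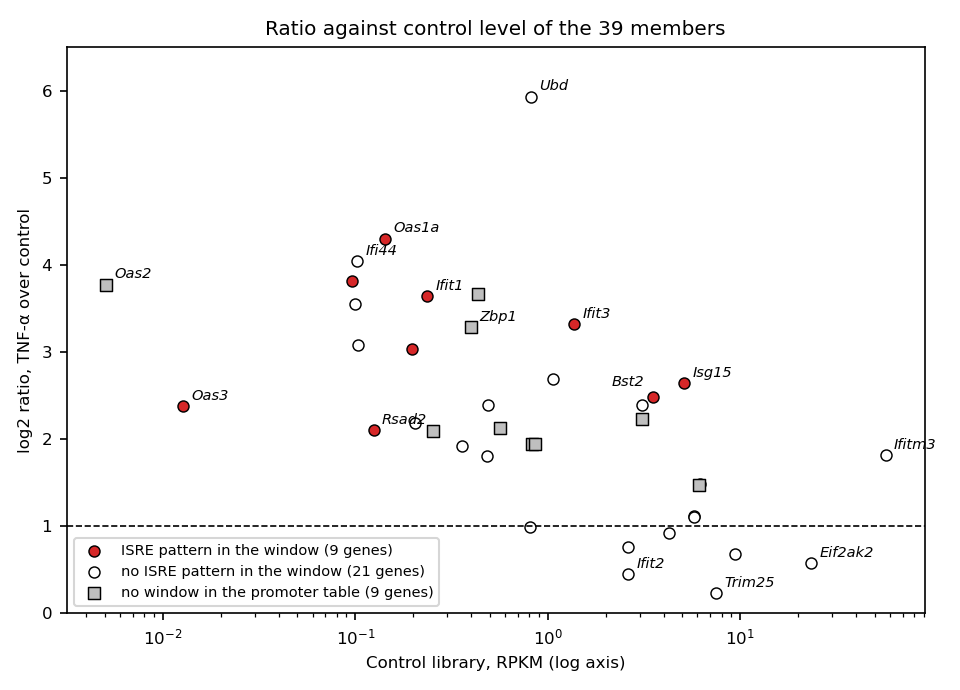
Log2 ratio of TNF to control against control RPKM (log axis) for the 39 members, marked by whether the 250-base RefSeq window held the ISRE pattern (9 genes), did not (21) or was not given (9). Points fall towards the right, the red points all lie above 2 on the vertical axis, and Ubd stands alone at 5.93.

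The other antiviral interferon-stimulated genes of a wider list were mostly above 0 as well, with a lower median. Of 56 listed, 51 were tested, and 23 were called higher and 1 lower, beside 8.56% and 6.62% of all genes tested. The whole counting interval lay over 2-fold for 16, which 3.74% of all genes tested met. Ifi27l2a, Ifi27l2b, Ifit1bl1 and Ifit1bl2, all called higher, passed the filter through the TNF library, having under 10 counts in the control. Oas1f, the one called lower, passed it through the control. Of the tested genes, 46 lay above 0 and the median log2 ratio was 0.83. The highest was Ifit3b, the paralog of Ifit3, with 28 and 366 counts (log2 ratio 3.37, 2.89 to 4.06). The lowest was Oas1f, an Oas1 paralog, with 12 and 2 counts (log2 ratio -1.99, -6.05 to -0.68). Summed, these genes went from 1003 to 1587 CPM.

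Of the steps upstream of the effector genes, the interferons themselves were barely detected. The 21 interferon ligand genes summed to 6 counts in the control (exact Poisson 95% interval 2.20 to 13.1) and 8 with TNF-α (3.45 to 15.8), or 0.135 and 0.150 CPM. Of these genes 17 had no count in either library, and Ifnz, with 4 and 6 counts, was the one that passed the filter (log2 ratio 0.23, -1.75 to 2.59). A difference in ligand mRNA was thus not detectable at this depth, and the libraries do not show levels at earlier times. The 9 interferon receptor chains and JAK kinases had 0 genes called in either direction and a median log2 ratio of 0.48, from -0.07 for Tyk2 to 0.96 for Ifngr1 (1434 and 3335 counts). Among the transcription factors that act downstream, Irf7 was called higher with 198 and 1210 counts (log2 ratio 2.34, 2.13 to 2.58), and Irf9 was not, with 1586 and 2636 counts (log2 ratio 0.47, 0.38 to 0.56). A list of 9 further genes of nucleic acid sensing held sensors, adaptors, kinases and a transcription factor. Among them, only Tmem173, encoding the adaptor STING, was called higher, with 231 and 693 counts (log2 ratio 1.32, 1.11 to 1.55). Ikbke (0.99, 0.88 to 1.10), Traf3 (0.96, 0.88 to 1.05) and Mb21d1 (0.91, 0.47 to 1.40) lay short of 2-fold, with intervals on both sides of the line. The median of the list was 0.26, with 7 of the 9 above 0. Mavs, the adaptor of RIG-I and MDA5, had the lowest ratio, with 1090 and 1002 counts (log2 ratio -0.38, -0.51 to -0.26). The effector genes thus had a higher median than these lists of receptors, kinases and sensing genes, as a description with no test.

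**Figure D4:**
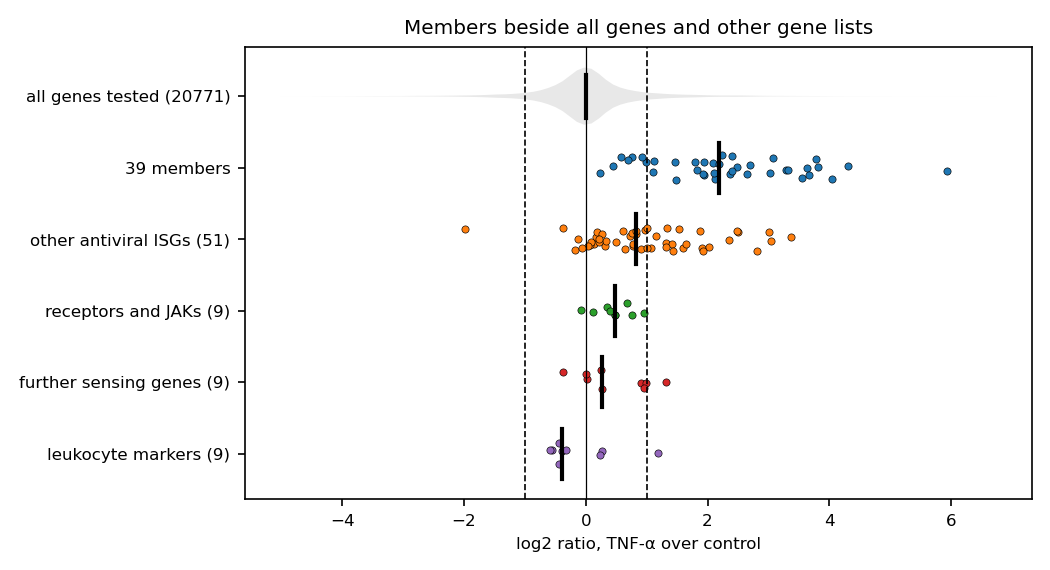
Log2 ratio of TNF to control for the 39 members and for the tested genes of other lists (points), with medians as black bars, the spread of all 20771 genes tested as a grey shape, and 2-fold as dashed lines. The median is 2.19 for the members, 0.83 for other antiviral genes, 0.48 for receptors and JAKs, 0.26 for further sensing genes, and -0.40 for leukocyte markers.

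Leukocytes, fibroblasts and endothelial cells also express interferon-stimulated genes, so their markers were followed as well. The 18 leukocyte markers summed to 23.8 CPM in the control and 31.4 CPM in the TNF library. Of 9 tested, only Cd14 was called, with 276 and 756 counts (log2 ratio 1.19, 0.99 to 1.40), and Cx3cr1 had the lowest log2 ratio (-0.59). Without Cd14, the other 17 summed to 17.6 and 17.2 CPM. Ptprc, which encodes the pan-leukocyte protein CD45, had 26 and 38 counts, and Cd3e, Ms4a1, Ncr1 and Siglech were at 0 in both libraries. The 8 fibroblast markers summed to 545.5 and 544.3 CPM, from a log2 ratio of -0.93 for Pdgfrb to 1.39 for Dcn. The 6 endothelial markers summed to 8.19 and 7.70 CPM, from -0.30 for Kdr to 0.22 for Cdh5. Over the same libraries the members summed to 476.9 and 1285 CPM. The part of any of these cells in the members' ratios was not tested.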

How the data were processed

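The deposited counts are whole reads counted per gene by the authors from RNA-seq of 1 control and 1 TNF-α library, not normalized, with exon coordinates and summed exon length. The kit named in the labels is SMARTER mRNA-Seq, and the submitters' processing notes name the builds GRCm38 and mm10. The aligner, the counting tool, the annotation and the use of strand are not given in the sources used here. The series title speaks of a microarray, whereas the values are read counts.

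TMM scaling used edgeR 4.0.16 in R 4.3.3, and CPM, RPKM and log2 ratios (prior count 2) were computed for genes with at least 10 counts in sum. No quasi-likelihood test could be fitted with 1 library per group, so a call means past 2-fold, with no test. Totals were 44462275 and 53487087 counts, and intervals cover counting error only, since reads copied by PCR and lacking molecular identifiers need not be separate molecules. Alternatives were scaling by DESeq2 1.42.0 size factors, by upper quartile or by total counts, other filters, prior counts and folds, halved counts, a thinned TNF library, call rules on reads or intervals, and edgeR's exact test at assumed spreads. Promoter sequences came from RefSeq (GRCm38.p6), and transcripts for the search of shared 50-base stretches from GENCODE M21. The calls and intervals were tested on simulated data that held counting error only. That simulation had no spread between cultures, so it cannot show how the calls fare under such spread. Python 3.11.15 was used for the tables and figures.

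Members, role groups and gene lists were chosen with earlier results of these data known. Every member is named, with the highest and lowest gene of each other list reported. Krt14, Ptprc, the markers at 0, Uba7, Ube2l6, Olfr56 and the genes that share exons with members were named after their values were seen. The same holds for Ifi27l2a, Ifi27l2b, Ifit1bl1, Ifit1bl2, Ikbke, Traf3 and Mb21d1.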

Additional observations from a re-analysis of the deposited data

How the results depend on the processing

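No paired analysis was possible because the control and TNF-α arms hold 1 library apiece, and for the same reason no replicate could be left out. Under 9 alternatives of scaling, filter, prior count and depth, the members called higher numbered 30 to 33, none was called lower, and their median log2 ratio ran from 2.08 to 2.24. The count of 33 came with no filter, where Herc6 reached 1.002. The count of 30 came with a minimum of 1 CPM in at least 1 library, where Oas2 and Oas3 were no longer tested. The other members under 1 CPM in the control met that minimum only through the TNF library, so this filter does not check their low control level. All 349 values of single members kept their direction and moved by less than their interval. A fold of 1.5 called 36 members higher and a fold of 4 called 23. edgeR's exact test called 30 at an assumed coefficient of variation of 0.2 and 10 at 0.4, so the number of calls rests on a spread between cultures that these libraries cannot measure. Of the other antiviral genes, 19 to 23 were called higher under the 9 alternatives, 8 at a fold of 4, 15 at a coefficient of 0.2 and 1 at 0.4. Over all genes, higher and lower calls were 1777 and 1375, against 836 and 659 with the minimum of 1 CPM, 2695 and 2981 with no filter, 3210 and 2846 at a fold of 1.5, 540 and 342 at a fold of 4, 776 and 561 by the whole counting interval, 745 and 523 at a coefficient of 0.2, and 91 and 54 at 0.4. Depth limits the ratios of the 17 members with under 100 control counts.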
